A study of Caenorhabditis elegans with 2 samples.

Results

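Sex determination and dosage compensation in the nematode Caenorhabditis elegans are set by a short list of genes. The 10 described here were xol-1, sdc-1, sdc-2, sdc-3, dpy-21, dpy-26, dpy-27, dpy-28, dpy-30 and her-1, out of 19973 protein-coding genes in the Ensembl models of WBcel235. They were chosen by their known roles, after the value of the peak nearest to xol-1 had been seen in these data, so their values are given as a description and without a test. Each gene was taken with its gene body and the 5 kb upstream of its 5′ end, and every interval overlapping that window by at least 1 bp was counted. On this rule 3 genes lay on X (xol-1, sdc-1, sdc-2) and 7 on autosomes: dpy-27 and dpy-28 on III, dpy-26 on IV, and sdc-3, dpy-21, dpy-30 and her-1 on V.

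The intervals came from a chromatin immunoprecipitation and sequencing (ChIP-seq) experiment on NHR-21, a nuclear hormone receptor, carried as an eGFP fusion by strain OP361. The strain has the mutation unc-119(tm4063) on III and the insertion wgIs361, and all animals analysed here shared both. Whole L2 larvae of both sexes, of unknown age, gave 1 group with 2 biological replicates, and no control sample was analysed here. The antibody label names nhr-21 while the description names the eGFP fusion, and the sources used here do not give the promoter of the transgene, so the cells that made the fusion protein are not known from the labels. The share of males among these larvae is not known here, so signal from one sex cannot be told apart from signal from the other.

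The deposited lists were a pooled list of 30000 candidate intervals, a list of 30000 for each replicate, and an optimal list of the 3647 pooled intervals past the authors' reproducibility threshold. Column 7 of each list is the authors' own signal value for an interval, with no stated scale, and here it serves to describe intervals and to rank them inside their own list, with rank 1 the strongest. Values in the optimal list ran from 52.2 to 1244 with a median of 87.3, and its 3647 members were exactly the strongest 3647 of the pooled candidates. Of these optimal peaks 814 were on X. Read totals are not in the lists, so the depth is unknown.

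In XX hermaphrodites the X-linked gene sdc-2 is active, and its protein, with SDC-3 and the zinc-finger protein SDC-1, loads a condensin-like dosage compensation complex onto both X chromosomes, lowering X gene expression, and represses the male-promoting gene her-1. In XO males the X-linked switch gene xol-1 is active early and keeps sdc-2 off. The complex enters X at recruitment sites that share a short motif, whose core is used below as the word GCGCAGGG.

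Optimal peaks lay in the windows of 6 of the 10 genes: xol-1, sdc-1, sdc-2, dpy-21, dpy-28 and her-1. The share of 60% stood beside 24.6% of all protein-coding genes. On X it was 3 of 3 genes, beside 29.8% of the 2731 X genes, and on autosomes 3 of 7 (42.9%), beside 23.8% of 17242 genes. These windows were longer than usual, with a median of 11.7 kb against 7.03 kb over all protein-coding genes, and per 10 kb of window they held 0.642 optimal peaks against 0.429. The strongest peaks were upstream of dpy-28 (rank 7 of the pooled list) and of xol-1 (rank 10).

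The reference sequence at the summits of 5 optimal peaks is given here because these are the positions the values below refer to. Each line shows a summit with 50 bp on either side, from the plus strand of the RefSeq WBcel235 genome, which shares its coordinates with ce11. Capitals mark GCGCAGGG, on either strand, in the xol-1 sequence and GAGAGA, on either strand, in the others. The stretches are X:8036384-8036484 for xol-1, X:11522230-11522330 for sdc-2, X:16271317-16271417 for sdc-1, III:10759202-10759302 for the peak upstream of dpy-28 and V:17951361-17951461 for dpy-21. Each of the 5 occurred at 1 place in the genome as an exact match.
xol-1: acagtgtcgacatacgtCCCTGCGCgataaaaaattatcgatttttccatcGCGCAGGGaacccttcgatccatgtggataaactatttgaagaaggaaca
sdc-2: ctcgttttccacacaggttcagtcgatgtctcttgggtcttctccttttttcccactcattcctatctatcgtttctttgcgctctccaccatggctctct
sdc-1: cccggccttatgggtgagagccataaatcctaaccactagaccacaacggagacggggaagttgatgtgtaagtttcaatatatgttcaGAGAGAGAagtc
dpy-28: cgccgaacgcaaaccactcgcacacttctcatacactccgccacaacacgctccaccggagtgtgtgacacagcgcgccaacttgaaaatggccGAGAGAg
dpy-21: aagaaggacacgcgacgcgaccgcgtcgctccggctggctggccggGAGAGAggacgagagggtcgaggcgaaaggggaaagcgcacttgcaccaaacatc

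**Figure D1:**
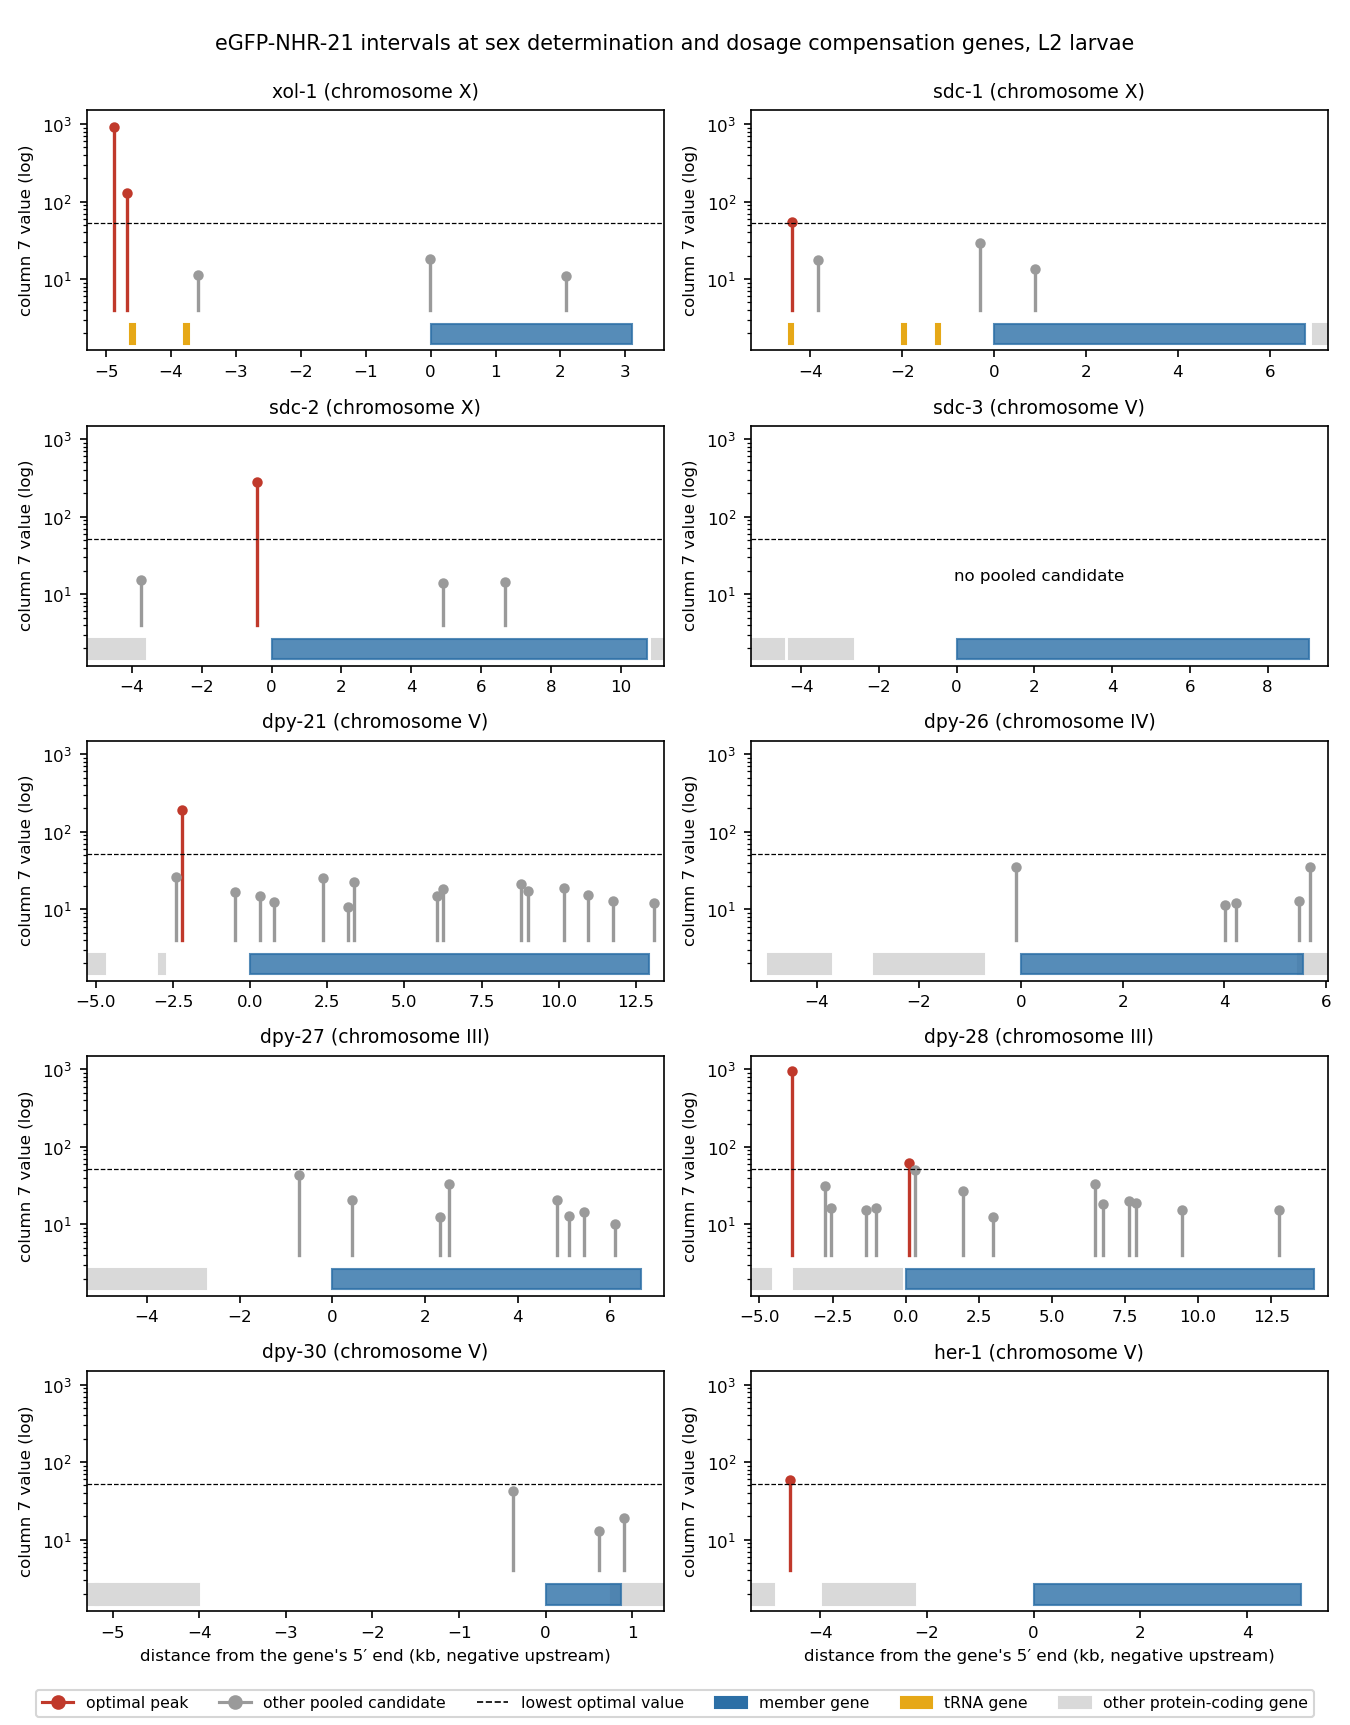
Intervals in the windows of the 10 genes. The horizontal axis is the distance from the gene's 5′ end in kb (negative upstream), and the vertical axis, on a log scale, is the column 7 value of each pooled interval at its summit; red marks optimal peaks, grey the other candidates, and the dashed line the lowest optimal value (52.2). The strongest peaks stand upstream of xol-1 (904) and dpy-28 (969), the other candidates are below 50, and sdc-3 has no pooled candidate.

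xol-1 (WBGene00006962, X:8041313-8044409, plus strand) encodes the switch protein that is high in XO embryos and low in XX embryos. Its main peak, X:8036099-8036904 with the summit at 8036434, had a value of 904 in the pooled list. In the replicate lists the same position had 367 in replicate 1 and 523 in replicate 2, and it was 11th in both. The summit was 4879 bp upstream of the annotated 5′ end, in intergenic sequence, and no other protein-coding gene had it in its window. Among the 814 optimal peaks on X it was the 5th strongest, 10.4 times the median value of all optimal peaks. A second summit in the same interval, at 8036642, had a value of 131 (rank 931), with 39.9 in replicate 1 (rank 1627) and 119 in replicate 2 (rank 441). This weaker summit was the member peak whose rank differed most between the replicates, by 3.69-fold.

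The xol-1 gene itself carried little signal. A candidate at X:8041108-8041497, with its summit 10 bp upstream of the 5′ end, had 18.1 (rank 14337), against the list's median of 17.4. The remaining candidates were X:8037540-8037929 (11.2, rank 26313), which is intergenic, and X:8043198-8043587 (10.8, rank 27117), which lies in a UTR exon of the gene. The second of these was in the replicate 2 list and not in that of replicate 1. So the strong signal in this window was confined to the interval nearly 5 kb upstream.

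The main xol-1 summit lay between a pair of copies of GCGCAGGG in opposite orientation, X:8036401-8036408 on the minus strand and X:8036435-8036442 on the plus strand. Their starts were 34 bp apart, their facing ends were separated by 26 bp, and their centres were 29 bp to the left and 5 bp to the right of the summit. Read along their own strands, both copies are part of the same stretch of 12 bases, with the core in capitals.
xol-1, shared by both copies: atcGCGCAGGGa
This longer word was read from the xol-1 copies, which therefore lend it no support. Outside the xol-1 interval it occurred 8 times on X and 1 time on the autosomes, and 7 other optimal intervals on X held it against 0 on autosomes. The core alone had 81 copies on X (4.57 per Mb) and 233 on autosomes (2.82 per Mb).

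The 8 optimal peaks of the 10 genes lie in 7 intervals, since both xol-1 summits share 1, and the core was in 1 of the 7, the one upstream of xol-1. For all optimal intervals, the share was 3.22% on X (26 of 808, 95% Wilson interval 2.21 to 4.67) and 0.213% on autosomes (6 of 2819, 0.0976 to 0.464). Among other pooled candidates it was 0.129% (33 of 25659, 0.0916 to 0.181). The other candidates were not split by chromosome, so their share is not matched to that on X. The Wilson intervals cover counting error over intervals only. The xol-1 interval was among 5 on X with at least 2 copies, whose values ran from 673 to 1105. Their median of 904 is the value of the xol-1 interval itself, which was known when the genes were chosen. The 21 X intervals with 1 copy had a median of 121 and ran from 60.6 to 890. The 782 with no copy had a median of 87.2 and a highest value of 1090, and the 6 on autosomes with a copy a median of 77.7. Intervals with at least 2 copies were also wider, with a median of 571 bp against 390 bp for those with none, and the part of width in these values was not tested. Of the 20 strongest optimal intervals on X, 10 held the core, the xol-1 interval among them, against 16 of the other 788. A match of letters is a description and does not show that the dosage compensation complex or NHR-21 bound there.

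**Figure D2:**
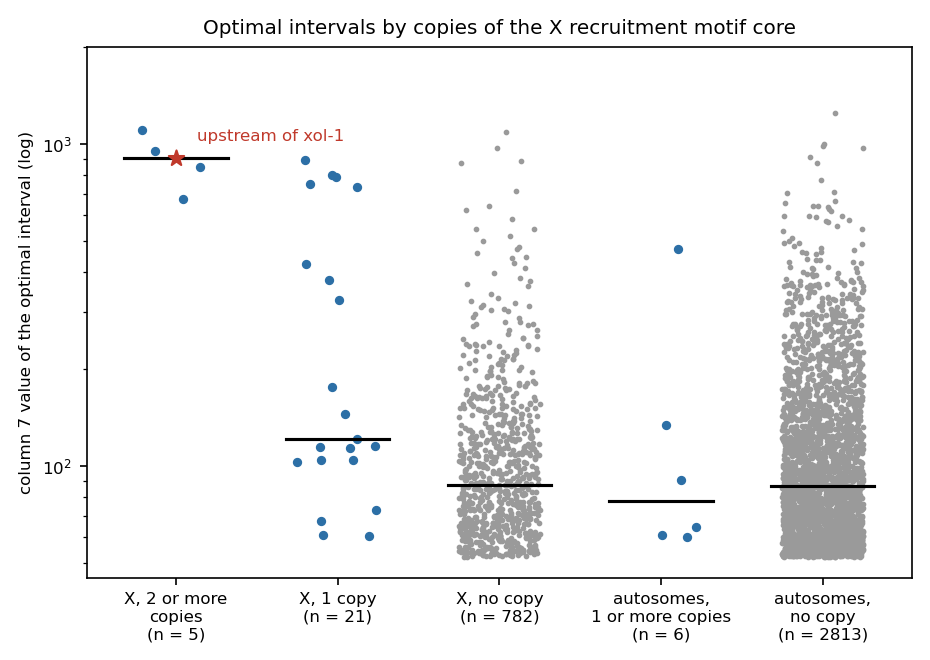
Optimal intervals grouped by chromosome and by copies of GCGCAGGG on either strand. Each point is 1 interval, its column 7 value on a log axis; bars are medians; the star is the interval upstream of xol-1 (904). The 5 X intervals with at least 2 copies lie between 673 and 1105. The X intervals with 1 copy reach 890, and the 782 without a copy have a median of 87.2 and reach 1090.

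sdc-2 (WBGene00004746, X:11522707-11533450, plus strand) encodes the protein that starts loading of the complex on X. Its optimal peak, X:11522182-11522379 with the summit at 11522280, was the nearest to its own gene's start among the 3 X-linked genes, 427 bp upstream and intergenic. The value was 279.9 in the pooled list (rank 213), 118 in replicate 1 (rank 192) and 159 in replicate 2 (rank 252). On X it was the 51st of 814 optimal peaks. The other candidates in this window were weak: X:11518762-11519151 in an intron of hpo-34 (15.1, rank 18146), and X:11527408-11527797 and X:11529191-11529580 in coding exons of sdc-2 (13.8, rank 20440, and 14.4, rank 19323). The first of these coding-exon candidates was in neither replicate list. The same optimal peak also fell in the window of hpo-34, whose 5′ end lies farther away. At sdc-2, then, the signal stood close to the gene's own start, unlike at xol-1.

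sdc-1 (WBGene00004745, X:16275763-16282534, plus strand) encodes a zinc-finger partner of SDC-2. Its optimal peak, X:16271172-16271561, was among the weakest of the list, at 53.8 (rank 3510), with 25.4 in replicate 1 (rank 3271) and 31.8 in replicate 2 (rank 3664). The summit, 4396 bp upstream of sdc-1, fell in the tRNA gene WBGene00014388 (X:16271296-16271367), inside the antisense transcript W10G6.5. The nearest protein-coding 5′ end was that of ifa-3, an intermediate filament gene on the minus strand, 1298 bp away. At the start of sdc-1 itself a candidate at X:16275265-16275654, 303 bp upstream, had 28.8 (rank 7670), with 15.2 in replicate 1 (rank 7200) and 14.1 in replicate 2 (rank 10641), so it was in both replicates but below the threshold. The others were X:16271739-16272128 (17.7, rank 14766) and X:16276456-16276845 in an intron of sdc-1 (13.5, rank 20884), the second of which was not in the replicate 2 list.

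A tRNA gene thus lay within 250 bp of 2 of the 8 member summits, both on X: at the sdc-1 peak and 43 bp from the weaker xol-1 summit (WBGene00022939, X:8036685-8036757). The main xol-1 summit was 251 bp from the same tRNA gene, just past that limit, and the interval that holds both summits overlaps the gene. A tRNA gene within 250 bp was found for 14.0% of the 814 optimal peaks on X, 2.86% of the 2833 on autosomes and 0.877% of the 25659 other candidates. The last share is over all chromosomes. The tRNA sequence at sdc-1 occurs 20 times in the genome as an exact copy and that at xol-1 10 times, so reads from other copies could fall there, and the sources used here do not give how the authors treated reads with several matches. The part of the tRNA genes in these peaks was not tested.

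sdc-3 (WBGene00004747, V:15039148-15048207, minus strand), the remaining SDC gene, had no optimal peak and no pooled candidate in its window of 14060 bp, and it was the 1 member without any. Each replicate list held 3 weak intervals there, with values of 7.11 to 7.82 in replicate 1 and 6.65 to 11.7 in replicate 2. None of the 3 in replicate 1 overlapped one in replicate 2. The strongest, V:15048124-15048503 in replicate 2, stood 107 bp upstream of the gene at rank 13619.

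her-1 (WBGene00001842, V:9697015-9702035, plus strand) encodes the secreted ligand that inhibits the receptor TRA-2 and so promotes male development. Its single pooled interval was the optimal peak V:9692257-9692646, at 59.2 (rank 3099), with 24.8 in replicate 1 (rank 3398) and 34.0 in replicate 2 (rank 3352). The summit was 4563 bp upstream of her-1 and 293 bp upstream of ztf-9, a zinc-finger gene on the opposite strand. The gene ZK287.7 lies between this peak and her-1. A copy of the core word at V:9698991-9698998 lies in her-1, 1976 bp downstream of its 5′ end, in no annotated exon. No interval of any of the 4 lists overlapped it, and the nearest pooled interval was 3889 bp away. The replicate 2 list alone held V:9695249-9695628 (7.82, rank 22526), 1576 bp upstream of her-1. So at her-1 the word was present without an interval over it, whereas at xol-1 it lay under one of the strongest. A copy outside the optimal intervals was usual on autosomes, where the core had 233 copies and 6 optimal intervals held it. The her-1 copy also lacked the longer word shared by the xol-1 copies.

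dpy-28 (WBGene00001087, III:10763131-10777076, plus strand) encodes a HEAT-repeat subunit that the dosage compensation complex shares with condensin I. The strongest peak in any of the 10 windows, III:10759088-10759427 with the summit at 10759252, had a value of 969 (rank 7), with 388 in replicate 1 (rank 8) and 579.8 in replicate 2 (rank 6). It was 3879 bp upstream of dpy-28 but 55 bp upstream of tasp-1, a gene of the threonine aspartase family on the same strand. It also lay in the windows of hpl-2, which encodes a heterochromatin protein of the HP1 family, rnf-113 and K01G5.10, so the distance rule gave 1 interval to 5 genes. By that rule these 4 neighbours share the pooled rank of this strongest member peak. ZK899.5 on X, at rank 6, completed the 5 genes nearest to it in rank.

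A second optimal peak, III:10763046-10763435, stood 110 bp inside dpy-28 in a coding exon, with 62.5 (rank 2874). Its overlapping interval in replicate 1 had 35.7 (rank 1933), with a summit 212 bp away, and that in replicate 2 had 28.8 (rank 4165). The replicate 1 interval was nearer, at 11 bp between summits, to the candidate named next, so replicate 1 had no separate interval at this optimal summit. The end of tasp-1 is 109 bp from the start of dpy-28. Beside this peak, III:10763247-10763636 in an intron had 49.9 (rank 3843), just outside the threshold. The remaining 12 candidates in the window had values of 12.4 to 33.0. Thus the strongest signal assigned to dpy-28 stood at its neighbour's start, and the signal at its own start was below the optimal median.

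dpy-21 (WBGene00001080, V:17936282-17949193, minus strand) encodes a histone H4 lysine demethylase that acts with the complex. Its optimal peak, V:17951216-17951605, had 189 (rank 476), with 63.8 in replicate 1 (rank 713) and 126 in replicate 2 (rank 393). The summit was 2218 bp upstream of dpy-21 and 538 bp from Y59A8B.24, whose 5′ end was nearer. Around it, dpy-21 had the most pooled candidates of the 10 genes, 16 in all. The other 15 had values of 10.6 to 25.9, 12 of them in the gene body, and 11 overlapped an interval in both replicate lists. Some of the 11 shared a replicate interval. V:17951416-17951805 overlapped the replicate 1 interval already matched to the optimal peak.

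dpy-27 (WBGene00001086, III:3813018-3819679, minus strand) encodes the SMC4-like subunit found in this complex and in no other condensin. It had no optimal peak. The strongest of its 8 candidates, III:3820203-3820592, stood 719 bp upstream, with 43.5 (rank 4571), with 12.8 in replicate 1 (rank 9509) and 25.0 in replicate 2 (rank 4990). The 7 others lay in the gene body with values of 9.99 to 33.1, the strongest being III:3816956-3817345 in a coding exon. In replicate 1 that coding-exon interval was the stronger of the pair, at 14.2 (rank 8142).

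dpy-26 (WBGene00001085, IV:12445801-12451335, minus strand), which encodes the kleisin subunit shared with condensin I, had 5 candidates and no optimal peak. The strongest in the pooled list, IV:12451240-12451629, stood 100 bp upstream of the gene at 35.0 (rank 6051). It had 16.4 in replicate 1 (rank 6386) and no overlapping interval in replicate 2, where the strongest interval of the window lay in an intron of dpy-26 (13.5, rank 11328). An interval of almost the same value, IV:12445457-12445846 (35.0, rank 6059), overlapped the 3′ end, with its summit in an intron of the neighbour C25G4.3. The other 3 had values of 11.4 to 13.0.

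dpy-30 (WBGene00001088, V:12191519-12192385, plus strand) encodes a small protein shared by the dosage compensation complex and the COMPASS histone H3 methyltransferase complex. Its strongest candidate, V:12190945-12191334, stood 379 bp upstream with 42.9 (rank 4642), with 19.0 in replicate 1 (rank 5063) and 21.5 in replicate 2 (rank 6039). The others were V:12191941-12192330 in a UTR exon (12.9, rank 22190) and V:12192230-12192619 past the 3′ end (18.9, rank 13524). So in the pooled list dpy-26, dpy-27 and dpy-30 each had their strongest candidate upstream of the gene's start and under the threshold of 52.2, which the sdc-1 peak (53.8) passed narrowly. In both replicate lists the strongest interval was upstream for dpy-30 but not for dpy-26 (replicate 2) or dpy-27 (replicate 1).

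Counting all 10 windows, the pooled list held 61 candidates, 8 of them optimal, and 9 of 10 genes (90%) had at least 1, beside 68.0% of all protein-coding genes. Of the 8 optimal peaks 7 lay upstream of the gene and 1 in the gene body. Of the other 53 candidates, 36 had their summits in gene bodies, 14 upstream and 3 past a 3′ end. The same split over all protein-coding genes is not given here, so this difference cannot be called particular to these genes. All 8 optimal peaks overlapped an interval of both replicates, against 99.7% of all 3647, though in replicate 1 the interval over the dpy-28 coding exon was the one shared with its neighbour. For the other candidates this was 35 of 53 (66.0%), against 53.3% of all 26353. Neighbouring candidates could overlap the same replicate interval, as at dpy-21, so these are not counts of separate replicate intervals. For 6 of the 8, the overlapping interval was among the strongest 3647 of each replicate, the exceptions being those of sdc-1 and the dpy-28 coding exon. The ranks of a peak in the 2 replicates differed by 1.32-fold in the median over the 8 member peaks, against 1.47-fold over the 3636 optimal peaks found in both replicates.

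**Figure D3:**
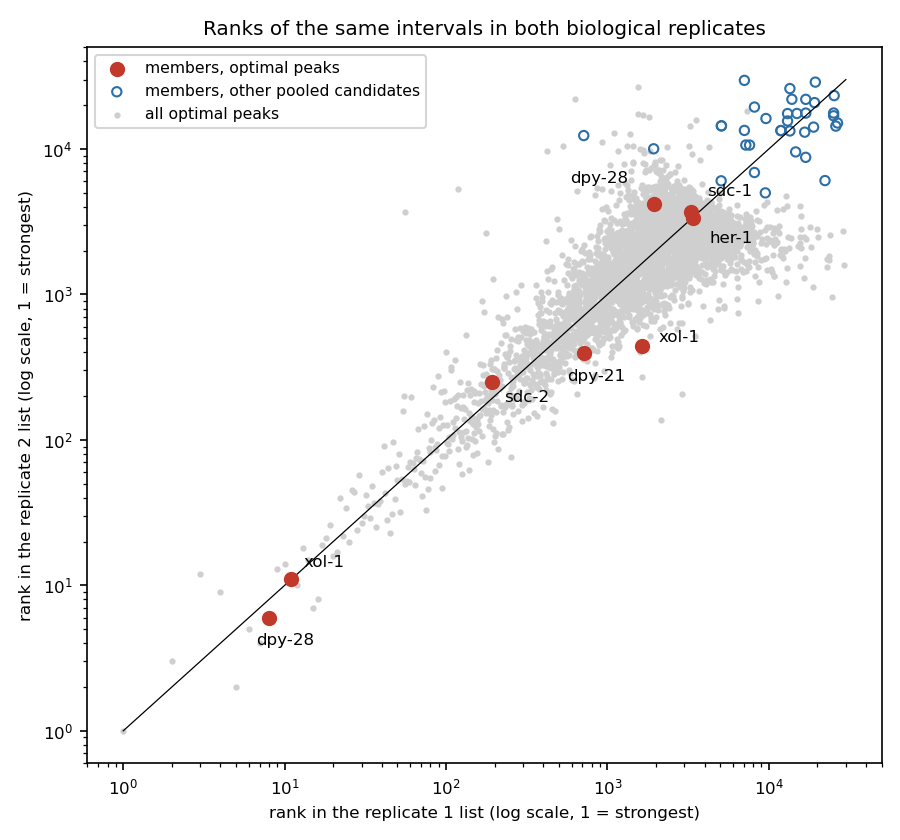
Rank of each interval in the replicate 1 list (horizontal) against its rank in the replicate 2 list (vertical), both on log axes with 1 the strongest and the diagonal marking equal ranks. Red points are the 8 optimal peaks of the 10 genes, open circles their other candidates found in both lists, and grey points all optimal peaks. The dpy-28 and main xol-1 peaks sit at ranks 6 to 11 in both replicates, and the weaker xol-1 summit lies farthest from the diagonal among the red points.

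The count of genes depended on the length of the upstream region. With 1 kb upstream instead of 5 kb, 2 of 10 genes (sdc-2 and dpy-28, dpy-28 by its weaker peak) had an optimal peak, beside 15.2% of all protein-coding genes, and with 2 kb the count was the same 2. At 10 kb it was 6, beside 33.5%. The peaks of xol-1, sdc-1, dpy-21 and her-1 and the stronger one of dpy-28 all had their summits more than 2 kb upstream. For sdc-1, dpy-21, her-1 and that peak of dpy-28, the nearest protein-coding 5′ end belonged to another gene.

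**Figure D4:**
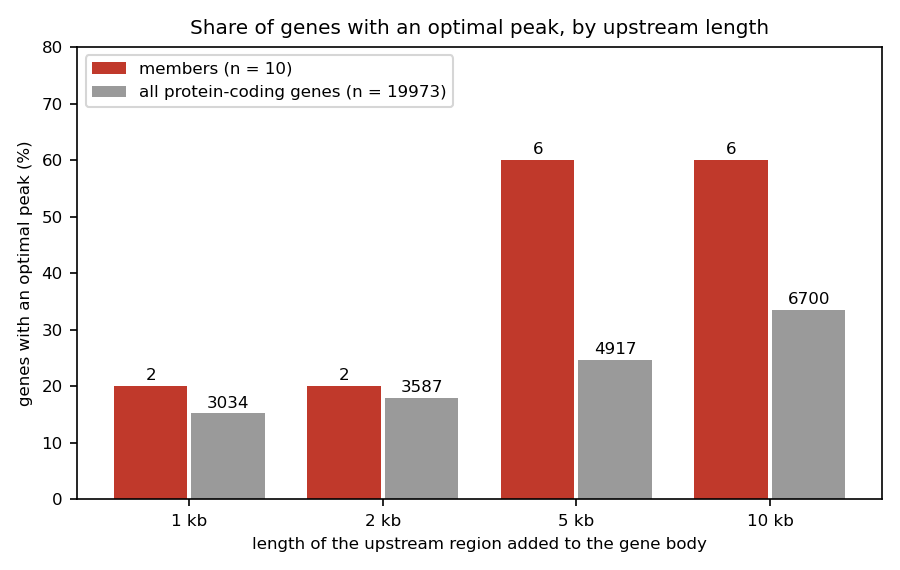
Share of genes with an optimal peak in the gene body or upstream region (vertical axis, percent, from 0), for upstream regions of 1, 2, 5 and 10 kb. Red bars are the 10 genes and grey bars all 19973 protein-coding genes, with the number of genes above each bar. The 10 genes go from 2 at 2 kb to 6 at 5 kb, while the grey bars stand at 18.0% and 24.6%.

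The bases at the member summits were of ordinary composition for optimal peaks. The GC content within 50 bp of the 8 summits had a median of 46.5% and ran from 30.7% at the weaker xol-1 summit to 65.3% at dpy-21, beside medians of 45.5% for optimal peaks on X, 44.6% for those on autosomes and 35.6% for other candidates. Of the other words searched on both strands, GAGAGA, the repeat marked in capitals above, was in 5 of 7 member intervals, beside 48.8% of optimal intervals on X, 46.4% on autosomes and 26.3% of other candidates. AGGTCA, a half-site of nuclear hormone receptors, was in 2 of 7, beside 14.9%, 11.6% and 10.4%. AAGTCA was in 1 of 7, beside 17.5%, 14.0% and 17.8%. CACGTG was in 0 of 7 (beside 13.7%, 13.6% and 7.16%) and TGATAA in 0 of 7 (37.5%, 34.6% and 36.2%). The absence of a word says only that these letters are not in these intervals.

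The rest of the pathway was read from a list of 36 genes, of which 13 (36.1%) had an optimal peak in the same kind of window, beside 24.6% of all protein-coding genes. The lengths of these windows are not given here, so the shares are not matched for length. The strongest values of these 13 genes had a median of 79.7 (67.8 to 219), against a median of 97.3 for the 4917 protein-coding genes with an optimal peak. For the 6 genes described above the median was 235 (53.8 to 969). That set was chosen with the xol-1 value known, and the windows of the 10 genes were longer than usual. Its highest value belongs to the peak nearest to tasp-1, so the medians are not a comparison of like sets. Of the X signal elements, which repress xol-1 in proportion to X number, ceh-39 had a peak (72.9, rank 2358, nearest to T26C11.8), fox-1 had a candidate of 10.1 and sex-1 had none. Of the autosomal signals that oppose them, sea-2 had a peak (79.7, rank 2084, 8757 bp downstream of its 5′ end) and sea-1 no candidate.

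The counts by group that follow rest on few genes each and stand beside 24.6% of all protein-coding genes. They were not tested. Both remaining subunits of the dosage compensation condensin had a peak. For mix-1, the SMC2 subunit of every worm condensin, the strongest had 189 (rank 478). It lay 16013 bp downstream of the 5′ end of mix-1, with the nearest 5′ end that of M106.8. For capg-1 the peak had 68.0 (rank 2583) and lay 5456 bp downstream of the 5′ end. Of 4 other condensin genes, smc-4 (67.8) and kle-2 (79.5) had one, each nearer to the start of another gene, F35G12.7 and C29E4.12. Both histone H4 lysine 20 methyltransferase genes, whose proteins act on the same residue as DPY-21, had a peak. These were set-4 at 190.2 (rank 474), 293 bp upstream of its own start, and set-1 at 105 (rank 1397), nearest to jhdm-1. Of the 5 COMPASS partners of DPY-30, ash-2 (219, rank 365) and wdr-5.1 (73.2, nearest to pdi-1) had one.

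Downstream of her-1, 2 of 8 sex determination genes (25%) had a peak, beside 24.6% of all protein-coding genes. These were tra-2, the receptor of HER-1, at 141 (rank 820, nearest to eif-2Bgamma), and tra-3, a calpain protease, at 91.1 (rank 1714). fem-2, a phosphatase that promotes male fate, had 51.9 (rank 3670) at 161 bp upstream, just under the threshold. The target mab-3, a DM-domain transcription factor of male development, had 72.5 (rank 2377), while dmd-3 and egl-1 had no optimal peak. None of the 7 germline sex determination genes (fog-1, fog-2, fog-3, gld-1, fbf-1, fbf-2, mog-1) had one. A weaker candidate was in the windows of 4 of the 7, and 68.0% of all protein-coding genes had a pooled candidate. Counts over so few genes were not tested.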

How the data were processed

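ChIP-seq peak lists of 2 biological replicates were analysed in ce11. Per the labels and the text listing deposited beside them, intervals were called on ChIP alignments with a control alignment, and the optimal list holds those past a reproducibility threshold. The sources used here do not give the aligner, peak caller or threshold. Column 7 is a signal value and column 9 a −log10 q-value, both as deposited by the authors. Every optimal peak had the highest q-value score of its list, so q-values did not rank them. Interval positions were deposited in bp, and starts are printed here counted from 1. The ce10 lists were not used here.

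Windows used Ensembl release 115 models and a 1 bp overlap, computed with Python 3.11.15 and pandas 2.3.3 and checked on simulated intervals. A replicate interval was matched by overlap, nearest summit first. Intervals shared by several summits were counted once for words. The tRNA, GC and word comparisons used 25659 other candidates, not split by chromosome and fewer than the 26353 of the replicate comparison. Words were searched in the RefSeq WBcel235 genome. Not every summit sequence is reported here. The members and lists were chosen with earlier results of these data known. Genes named were the 10 members, pathway genes with an optimal peak, the gene with the nearest 5′ end to each member peak, and the 5 genes nearest in rank to the strongest; other genes were named after their values were seen, as neighbours, as sharing a window or as listed genes without a peak. Read totals are unknown, and the Wilson bounds cover counting error over intervals only. Alternatives changed the upstream length, overlap rule, peak strength, replicates and gene models.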

Additional observations from a re-analysis of the deposited data

How the results depend on the processing

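The count of 6 genes with an optimal peak was 2 with 1 kb and 2 with 2 kb upstream, beside 15.2% and 18.0% of all protein-coding genes. It was 4 in the stronger 50% of optimal peaks, beside 14.1%. It was 5 where the upstream region ended at the next protein-coding gene. There her-1 dropped out and dpy-28 kept only its weaker peak, and no share over all genes is given for that setting. It was 5, beside 19.4%, where peaks had to be among the strongest of both replicates (sdc-1 dropped out). Without replicate 1 it was 5 (sdc-1 dropped out), beside 24.4%, and without replicate 2 it was 6, beside 23.9%. It stayed 6 at 10 kb (beside 33.5%) and with summits in the window (beside 23.6%). With RefSeq gene models, an alternative chosen after seeing the data, it was also 6. The count of 9 genes with a pooled candidate was 8 at 1 kb and at 2 kb, and 10 to 10 in single replicate lists, where sdc-3 was added. For these alternatives the share over all protein-coding genes is not given, and at 5 kb it was 68.0%. In single replicate lists the rank of the strongest peak ran from 11 to 11 for xol-1, 3271 to 3664 for sdc-1, 192 to 252 for sdc-2, 393 to 713 for dpy-21, 6 to 8 for dpy-28 and 3352 to 3398 for her-1. For dpy-28 the strongest rank was 2874 at 1 kb and at 2 kb, where the peak beside tasp-1 falls outside, and for her-1 it was 2751 at 10 kb. Within 50 bp of summits, a shorter stretch, GCGCAGGG was in 1.97% of optimal peaks on X, 0.0706% on autosomes and 0.0663% of other candidates. No paired analysis was possible because the labels give 1 group. With no read totals and no control sample analysed here, the depth behind a weak or missing interval is unknown.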
